A study of Mus musculus with 298 samples.

Results

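Galanin mRNA, counted under the gene symbol Gal, is described here in every cell of a single-cell data set from the mouse thoracic sympathetic ganglion. Gal is 1 of the 16892 genes in the deposited count table. It was chosen by its measured counts, which differ between the cell identities and vary inside the most abundant of them, so its levels by identity and its relation to other genes inside that identity are given as descriptions, with no test. Counts were found in 277 of the 298 cells, 21887 counts in all.

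Galanin is a neuropeptide made as a longer precursor, cut free at pairs of basic residues, amidated at its end and released from large dense-core vesicles. It acts on a family of G protein-coupled receptors, of which galanin receptor 1 couples mainly to inhibitory G proteins and galanin receptor 2 also to Gq and phospholipase C. Sympathetic neurons release noradrenaline together with peptides, of which neuropeptide Y is the best known, and in rat and mouse ganglia galanin is known for its increase after the axon is cut, an increase that depends on leukaemia inhibitory factor.

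The gene lies on mouse chromosome 19 at chr19:3409915-3414544 of GRCm38, on the minus strand, and no other annotated gene overlaps it. The counts are of the whole mRNA, and the stretch of it below is shown because it codes for the secreted peptide. It is given as spliced coding sequence from the GENCODE M21 annotation of GRCm38 (chr19:3411592-3413340, minus strand, with an intron removed between exons 3 and 4). The capitals mark the codons of the Lys-Arg pair before the peptide and of the Gly-Lys-Arg amidation and cleavage signal after it, and the 29 codons between them are the mature peptide inside a precursor of 124 codons.
Gal mature peptide coding stretch: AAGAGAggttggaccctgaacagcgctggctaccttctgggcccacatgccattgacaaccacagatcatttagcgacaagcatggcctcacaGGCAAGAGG

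All mice came from a cross of Wnt1-Cre with R26R-Tomato, in which the reporter marks descendants of Wnt1-expressing cells, chiefly the neural crest, and every cell shares this genotype and no treatment is labelled. Ganglia were dissociated, single cells were caught on 24 microfluidic chips, and polyadenylated RNA was counted. The labels give 28 male and 75 female cells as Noradrenergic3, 4 as Glutamatergic, 10 as Noradrenergic1, 39 as Noradrenergic2, 18 as Noradrenergic4, 23 as Noradrenergic5, 8 as Ach1, 8 as Ach2 and 85 as Unclassified. They also give sex and age, with 91 cells from 3 male and 207 cells from 7 female combinations. Ages ran from postnatal day 11 to 38. Each such combination is called a collection (P29 male, for example) and is the replicate, since the labels name no animals and p-values measure the spread between collections.

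Cells held 7225 to 81589 counts with a median of 33099, and no 2 cells had identical values. All Noradrenergic3 cells held counts of the catecholamine genes, and the neural crest-derived glial markers summed to a median of 5.90 counts per 10000 in them. The same glial sum was 26.9 in Unclassified cells, 28.3 in Glutamatergic, 29.6 in Ach1 and 31.2 in Ach2 cells, with Gfap at 0 in most identities. The 5 cells labelled P16 female held 28 Y-linked counts and 0 Xist counts, so their sex label is in doubt. They entered no comparison of the sexes. No chip held cells of both sexes or of 2 collections, so sex, age and chip cannot be told apart at the level of a collection.

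Gal was present in every Noradrenergic3 cell. The cells held 12 to 377 counts, and per 10000 counts of the cell the lowest value was 3.63, the median 33.5 and the highest 89.8. There were 4 cells under 10 counts per 10000, and 63 at or above 30. The pooled level over the cells of a collection averaged 34.5 ± 8.06 counts per 10000 (SD, n = 7 collections).

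The other identities followed in the order Glutamatergic, Noradrenergic1, Noradrenergic2, Noradrenergic4, Noradrenergic5, Ach1 and Ach2 by their mean over cells. Noradrenergic1 had a median of 12.4 counts per 10000 with a range of 0.307 to 76.2, and its pooled level averaged 15.2 ± 16.8 (SD, n = 5 collections). Noradrenergic2, whose cells all held Gal, had a median of 11.5 and a range of 0.755 to 42.1, with a pooled level of 10.8 ± 9.25 (SD, n = 7). Noradrenergic4 had a median of 6.41 and a range of 0 to 20.9, with 8.04 ± 3.72 over collections (SD, n = 5). The first places rest on a few cells. Without the P31 female collection the mean over cells was 7.97 in Noradrenergic1 and 17.1 in Noradrenergic2, against 18.8 and 15.4 with it, and without the P33 female cell the Glutamatergic mean was 13.1.

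At the low end, Gal was counted in 16 of 23 Noradrenergic5 cells, with a median of 0.490 and a highest value of 8.32 counts per 10000. The pooled level there averaged 1.72 ± 3.27 counts per 10000 (SD, n = 6 collections). In the cholinergic identities the median cell held no Gal. The 2 of 8 Ach1 cells with any Gal held 5 and 2 counts, and both were P31 female. The 2 of 8 Ach2 cells with any held 2 counts in a P38 male cell and 1 in a P29 male cell. Thinned to 7000 counts per cell, Gal was counted in 100% of Noradrenergic3 cells, 37 of 39 Noradrenergic2, 15 of 18 Noradrenergic4 and 9 of 23 Noradrenergic5 cells, and in 0 of the 8 cells of each cholinergic identity, whose few counts did not survive thinning.

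**Figure D1:**
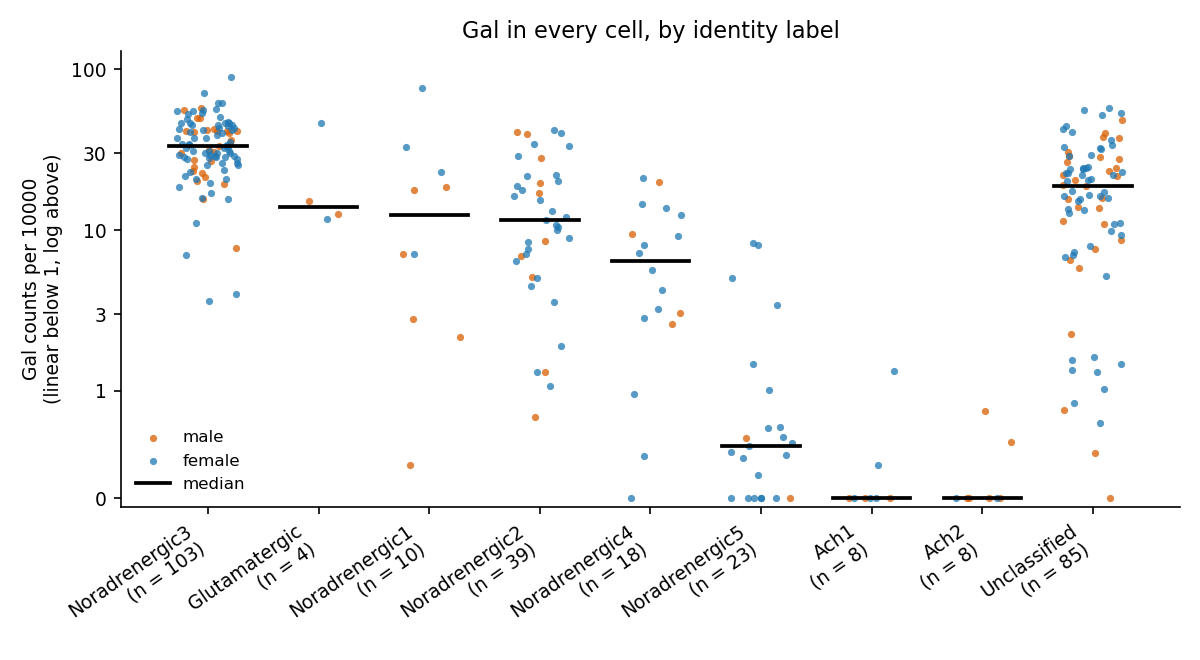
Gal counts per 10000 counts of the cell (vertical axis, linear below 1 and logarithmic above) for all 298 cells by identity label, male cells in orange and female cells in blue, with the median of each identity as a bar. Every Noradrenergic3 cell lies between 3.63 and 89.8, and the medians of Ach1 and Ach2 are 0.

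The same comparison can be made inside a collection, where cells shared age and sex. Gal was chosen for differing between identities, and the labels may come from these same transcriptomes. The counts of collections below therefore describe that pattern and are no independent support for it. Noradrenergic3 cells had the higher pooled level in 5 of 5 collections that also held Noradrenergic2, in 5 of 5 with Noradrenergic4 and in 6 of 6 with Noradrenergic5. They were higher in 3 of 4 collections with Noradrenergic1 and in 2 of 3 with Glutamatergic cells. The exceptions were the P31 female collection, where 3 Noradrenergic1 cells pooled to 44.8 counts per 10000 against 38.9 in Noradrenergic3, and the P33 female collection, where the single Glutamatergic cell had 46.2 against 34.7. Noradrenergic2 in turn exceeded Noradrenergic4 in 4 of 4 collections, and Noradrenergic4 exceeded Noradrenergic5 in 4 of 4. Cells nonetheless overlapped, since 5 of 39 Noradrenergic2 cells and 1 of 10 Noradrenergic1 cells lay above the Noradrenergic3 median, while 0 of 18 Noradrenergic4 and 0 of 23 Noradrenergic5 cells did.

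**Figure D2:**
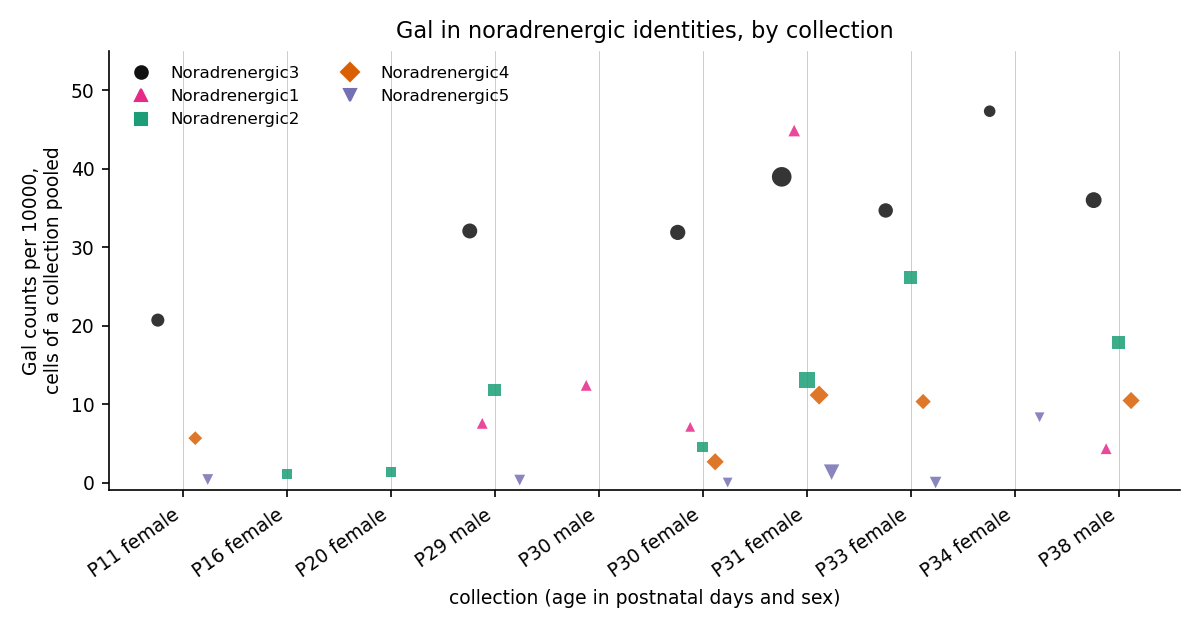
Pooled Gal counts per 10000 (vertical axis) for the 5 noradrenergic identities in each collection, ordered by age (horizontal axis), with larger symbols for more cells. Noradrenergic3 lies between 20.7 at P11 and 47.3 at P34, and it is above Noradrenergic2, Noradrenergic4 and Noradrenergic5 wherever they were caught together.

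In Noradrenergic2 the level differed widely between collections. Its pooled level was 1.07 counts per 10000 in the single P16 female cell and 1.32 in the single P20 female cell. It was 11.8 at P29 male, 4.54 at P30 female, 13.03 at P31 female, 26.1 at P33 female and 17.8 at P38 male. Inside the P29 male collection alone the 5 Noradrenergic2 cells spread between 0.755 and 40.5, so cells of a single collection spread as widely as the collections did.

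The 10 Noradrenergic1 cells also differed in another peptide. Npy encodes neuropeptide Y, the main peptide of vasoconstrictor sympathetic neurons. The 4 cells with 0 to 2 Npy counts held 1, 8, 5 and 8 Gal counts, between 0.307 and 7.09 per 10000. The 6 cells with 52 to 500 Npy counts held 20 to 286 Gal counts, between 7.13 and 76.2 per 10000, and the cell highest in Npy was also the highest in Gal. All 10 cells held 18 to 132 counts of Th, whose product tyrosine hydroxylase limits the rate at which catecholamines are made. The cells low in Npy included both those with the highest glial sums in this identity, 65.8 and 50.6 counts per 10000, against 1.30 to 15.3 in the cells with more Npy, and 3 of the 4 were male. All 3 cells with the most Gal were P31 female. The part of glial level, sex and collection in this split was not tested.

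In Noradrenergic5 the highest Gal value, 8.32 counts per 10000 from 34 counts, was in the P34 female cell that also held the most Npy of the identity, 228 counts. The next 3 cells, with 21, 12 and 13 Gal counts, held 27, 28 and 45 Npy counts, whereas a further cell with 74 Npy counts held 2 of Gal. Across cells the Spearman rank correlation rho of Gal with Npy was 0.766 in 10 Noradrenergic1, 0.463 in 23 Noradrenergic5, 0.281 in 39 Noradrenergic2, 0.228 in all Noradrenergic3 and 0.207 in 18 Noradrenergic4 cells. These are descriptions over cells that share collections and depth, and both values of a cell are divided by the same total. Taken inside collections of at least 10 cells, the Noradrenergic3 rho with Npy averaged 0.283. It ran from -0.391 at P38 male to 0.692 at P29 male. In the 4 Noradrenergic4 cells without any Npy count, Gal was 0 to 13.7 counts per 10000.

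**Figure D3:**
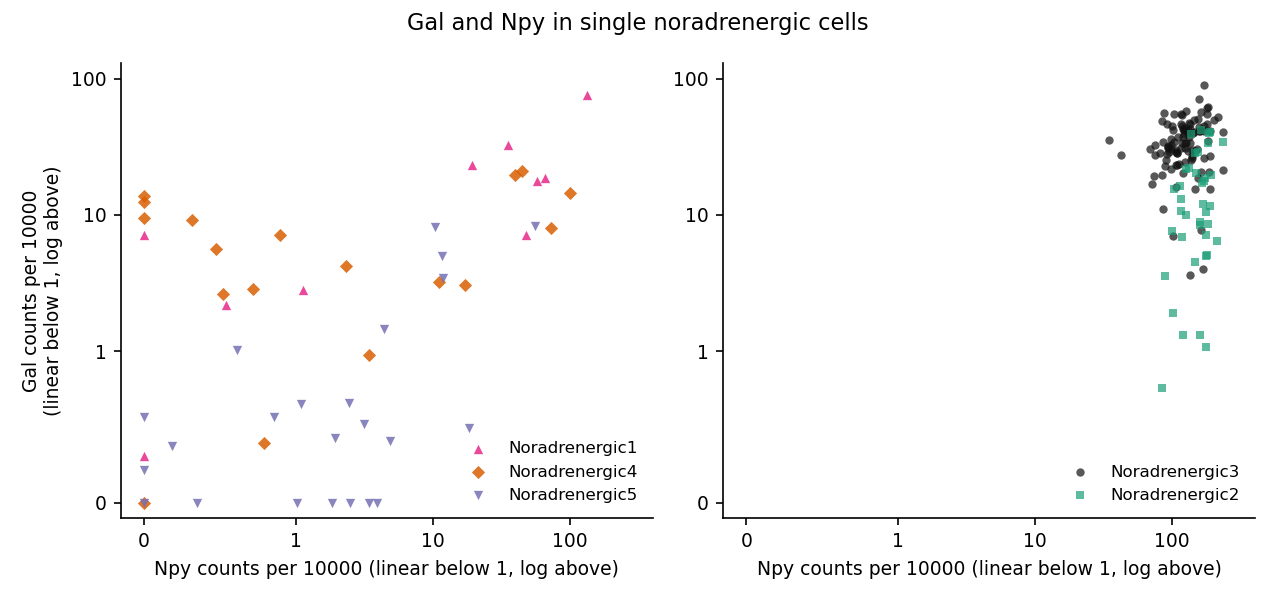
Gal counts per 10000 (vertical axis) against Npy counts per 10000 (horizontal axis), each point a cell and each axis linear below 1 and logarithmic above, for Noradrenergic1, Noradrenergic4 and Noradrenergic5 on the left and Noradrenergic3 and Noradrenergic2 on the right. Noradrenergic1 cells reach 76.2 counts of Gal per 10000 where Npy is highest, and Noradrenergic3 and Noradrenergic2 overlap in Npy with medians of 33.5 and 11.5 for Gal.

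The 4 Glutamatergic cells all held Gal. In 3 of them, 1 from P31 female and 2 from P29 male, Gal was 34, 23 and 34 counts, or 11.7, 12.6 and 15.1 per 10000, with 0 to 3 counts of Th. The P33 female cell held 236 Gal counts, or 46.2 per 10000. That cell carried 4 counts of the glutamate transporter gene Slc17a6 and 313 of Calca, which encodes calcitonin gene-related peptide, and also 130 of Th, 76 of Dbh, 68 of the noradrenaline transporter gene Slc6a2 and 555 of Npy. It thus held counts of both marker sets, and whether its site held more than 1 cell was not tested. Leaving it out gave a mean of 13.1 counts per 10000 over the other 3 cells.

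In Unclassified cells Gal was counted in 84 of 85, with a median of 18.8 counts per 10000, a highest value of 57.03 and a pooled level of 16.8 ± 7.78 (SD, n = 7 collections). The cells were spread over the whole range, with 23 under 10 counts per 10000, 5 of these under 1, and 17 at or above 30. Their median total was 22977 counts against 36658 in Noradrenergic3, and thinning to 7000 counts left Gal in 78 of 85. The rho of Gal with the summed catecholamine genes was 0.653 across 18 Unclassified cells at P31 female and 0.733 across 29 at P33 female, but 0.0426 across 24 at P29 male. With the glial sum it was 0.112, 0.00739 and -0.0383 in the same collections.

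Counts of the receptors were sparse. Galr1, encoding galanin receptor 1, was counted in 3 of the 4 Glutamatergic cells, with 4, 1 and 1 counts. It had none in Noradrenergic3 cells, which allows a share of up to 2.91% of cells with a count at this depth and sets no limit on cells that express the gene, nor in the other identities and the Unclassified cells. After thinning, 0 Glutamatergic cells kept a Galr1 count, and the 3 with a count before it include the P33 female cell with both marker sets. Galr2, encoding galanin receptor 2, was counted in 28 of 298 cells. They were 15 Noradrenergic3 (14.6% of them), 1 of 39 Noradrenergic2, 3 of 18 Noradrenergic4, 2 of 23 Noradrenergic5, 1 of 8 Ach2 and 6 of 85 Unclassified cells, none with more than 2 counts. After thinning 5 Noradrenergic3 cells kept a Galr2 count, so no order between identities is read from it. Noradrenergic3 cells with a Galr2 count had a median of 32.4 Gal counts per 10000, against 33.8 in those without, and the ranges overlapped almost wholly. Galr3 was not analysed here.

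Inside Noradrenergic3, Gal varied more from cell to cell than 20 of 21 other genes of similar mean level. Its coefficient of variation over all cells, with collections pooled, was 40.5%. Of these genes, with a mean within 1.5-fold of its own, Meg3, a maternally expressed long noncoding RNA, had a higher coefficient at 60.3%, and the median of the 21 was 21.5%. Gal was chosen in part for varying inside this identity, so its rank here describes that choice and is no further evidence. The cells with the lowest values, 3.63, 4.03, 7.03 and 7.69 counts per 10000, came from P31 female, P33 female, P31 female and P38 male. They held 28440 to 38584 counts in all, against a median of 36658 in the identity. On the 9 chips with at least 5 Noradrenergic3 cells the chip medians ran from 20.7 to 43.9, and the 4 P31 female chips alone gave 30.2, 39.1, 32.4 and 43.9.

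The relation of Gal to other genes was measured as Spearman's rho across the Noradrenergic3 cells of a collection and averaged over the 5 collections with at least 10 such cells, weighted by cells. This used 94 cells and 9372 genes counted in at least 20% of them. Over all these genes the mean rho had a median of -0.0174 and ran from -0.461 to 0.485. It was at least 0.3 for 72 genes (0.768%) and -0.3 or lower for 88 genes (0.939%). Of the 9372 genes, 785 had the same sign in all 5 collections, 308 positive and 477 negative. Some genes share a sign in all 5 by chance, and how many was not estimated, so a shared sign alone is not read as a relation. No p is attached to these values, because the genes were ranked by them.

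Adm, encoding the vasodilator peptide adrenomedullin, had the highest mean rho at 0.485 ± 0.110 (SD over 5 collections). Its rho was 0.664 at P29 male, 0.467 at P30 female, 0.390 at P31 female, 0.503 at P33 female and 0.608 at P38 male. S100a10, which encodes a partner of annexin A2 at the membrane, followed at 0.480 ± 0.140. Tomm5, a subunit of the protein import pore of mitochondria, was the most even of the genes named here over collections at 0.439 ± 0.0316. Then came the guanine deaminase gene Gda at 0.432, Ddc at 0.419, the annexin gene Anxa5 at 0.417, the cyclophilin gene Ppia at 0.414, the proton pump gene Atp6v1f at 0.410 and the glycolytic isomerase gene Gpi1 at 0.406. Ddc encodes the decarboxylase that makes dopamine, the step after Th.

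Syt1, the calcium sensor of synaptic vesicle release, had the lowest mean rho at -0.461 ± 0.177 (SD over 5 collections). It was -0.699 at P29 male, -0.489 at P30 female, -0.497 at P31 female, -0.382 at P33 female and -0.215 at P38 male. In the largest collection, P31 female, the 3 cells highest in Gal held 377, 354 and 242 Gal counts with 45, 61 and 45 Syt1 counts, and the 3 lowest held 14, 20 and 58 Gal counts with 91, 59 and 92 Syt1 counts. Per 10000, Syt1 was 10.7, 12.2 and 11.4 in the cells highest in Gal and 23.6, 20.7 and 26.9 in the lowest. Syt1 was picked by its rho in these same cells, so this gap illustrates the ranking and is no further evidence. Among the higher genes, picked in the same way, S100a10 and Ddc overlapped between these cells. Adm had 3, 3 and 8 counts in the cells highest in Gal and 2, 0 and 2 in the lowest. Per 10000 that was at least 0.602 against at most 0.585, so the gap in Adm rests on a few counts. The other genes at this end were Tmeff1 at -0.451, Chchd10, of the mitochondrial intermembrane space, at -0.448, the neural splicing factor gene Srrm4 at -0.447, Cnnm3 at -0.440, Brinp1 at -0.425, the reticulon gene Rtn1 at -0.423, the ribosomal protein gene Rpl13 at -0.409, the testican gene Spock3 at -0.407 and Rarres1 at -0.394.

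**Figure D4:**
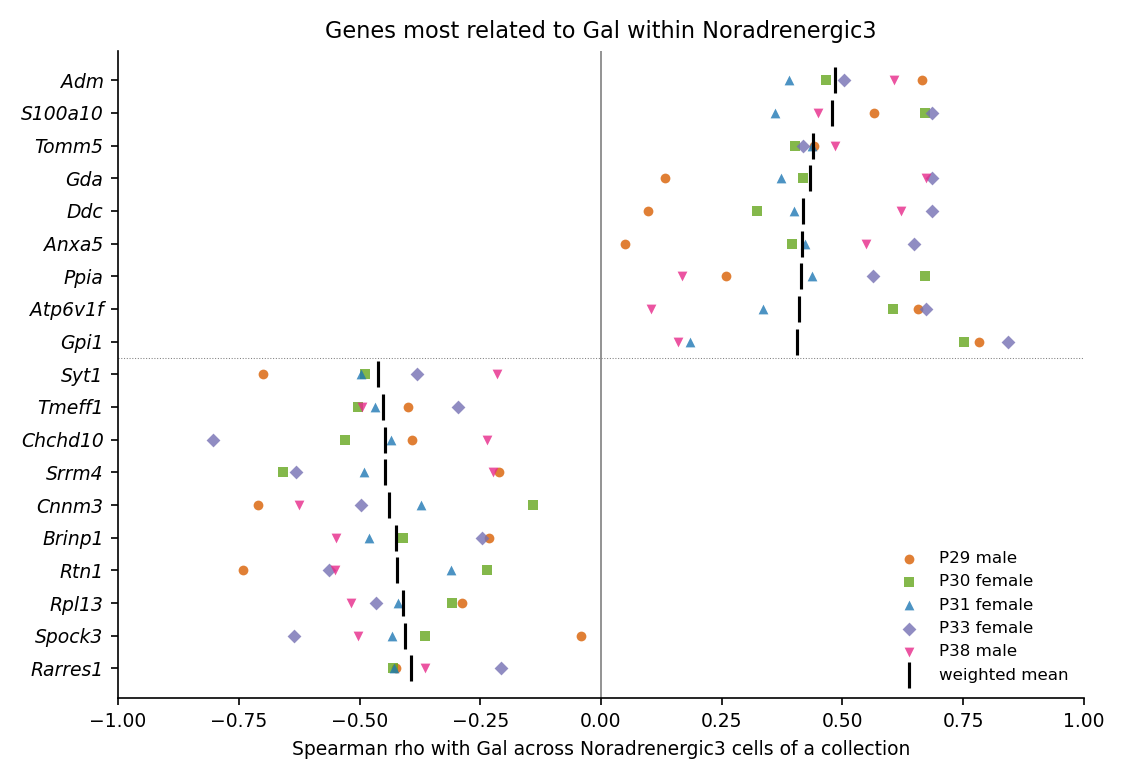
Spearman's rho with Gal (horizontal axis) across Noradrenergic3 cells for genes with the highest (top) and lowest (bottom) mean rho among those of 1 sign in all 5 collections, a symbol for each collection and a bar for the weighted mean. Tomm5 is the most even and Gpi1 runs from 0.159 to 0.842.

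**Figure D5:**
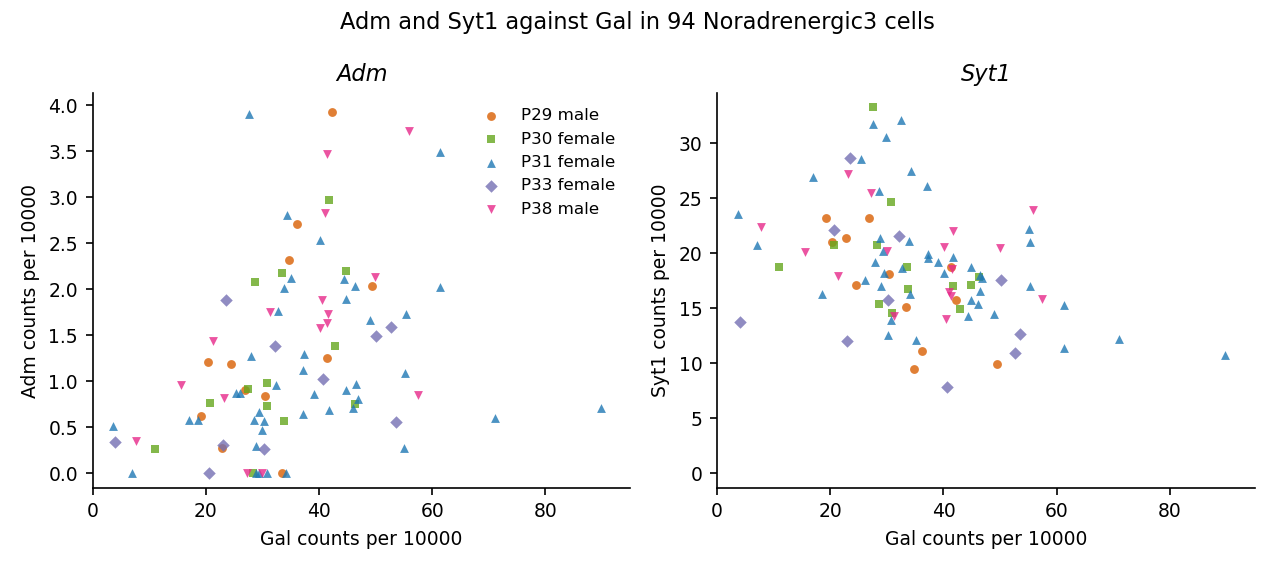
Adm (left) and Syt1 (right) counts per 10000 against Gal counts per 10000 in 94 Noradrenergic3 cells, coloured by collection. The 3 P31 female cells highest in Gal lie between 10.7 and 12.2 for Syt1, and low Adm values occur along the whole Gal axis, with 0.714 and 0.602 in the 2 cells highest in Gal.

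The values were smaller in thinned cells. Adm averaged 1.24 counts per 10000 in these cells, Tmeff1 0.570 and Rarres1 0.135, so most cells gave few counts of them, whereas S100a10 averaged 20.9. With every cell thinned to 7000 counts the rho of Adm was 0.217, that of S100a10 0.135, that of Syt1 -0.225 and that of Rarres1 -0.0703. Holding total counts and the glial sum constant left all 20 genes within their spread over collections. The rho of Gal itself with total counts ran from -0.247 to 0.564 over the collections, with the glial sum from -0.358 to 0.30 and with the stress and immediate-early sum from -0.335 to 0.0667.

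The ranking was set beside cells that had no part in it but came from the same collections. For Noradrenergic2 these were 35 cells of 4 collections, each with at least 5 of them. There 9 of the 10 highest genes had a positive rho with Gal and 5 of the 10 lowest a negative one. Of all genes, 45.4% were positive and 54.6% negative in these cells. In 71 Unclassified cells of 3 collections the counts were 10 of 10 and 7 of 10, with 53.3% of all genes positive and 46.7% negative. The rho of Adm was 0.485 in Noradrenergic3, 0.0918 in Noradrenergic2 and 0.113 in Unclassified cells, while in the last 2 that of Ddc was 0.256 and 0.456 and that of Gda 0.236 and 0.50. Syt1 was -0.123 in Noradrenergic2 and 0.103 in Unclassified cells, so its sign differed there. Of the 52 genes with rho of at least 0.3 and 1 sign throughout, 32 (61.5%) were positive in Noradrenergic2 and 46 (88.5%) in Unclassified cells. Of the 64 genes at the other end, 40 (62.5%) were negative in Noradrenergic2 and 38 (59.4%) in Unclassified cells.

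For most gene groups linked to galanin the median rho in Noradrenergic3 lay near that of all genes. Among 10 catecholamine genes the median rho was 0.00628, with 2 at or above 0.3, which were Ddc and the vesicular transporter gene Slc18a2 at 0.360. Slc18a2 was -0.176 at P33 female. The rho of Th averaged 0.0768 and ran from -0.539 at P33 female to 0.902 at P29 male. Among 11 granin and prohormone-processing genes the median was -0.0271. Chga, encoding the granule protein chromogranin A, reached 0.330 and Pcsk1n, encoding an inhibitor of a prohormone convertase, -0.341. For the amidating enzyme gene Pam it was -0.198 and for the convertase genes Pcsk1 and Pcsk2 0.0463 and -0.0578. The 11 genes of galanin receptor signalling had a median of -0.0244 and none beyond 0.3 either way.

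Galanin is known as a gene of injured neurons, so lists for that state were also read. The 6 genes of leukaemia inhibitory factor receptors and STAT signalling had a median rho of -0.0325 and none beyond 0.3. Of 11 axon injury genes with a median of 0.0519, the tubulin gene Tubb3 at 0.341 and the stathmin gene Stmn2 at 0.333 passed 0.3, and both are also general neuronal genes. Atf3, the injury-induced transcription factor, was at 0.0799, Jun at -0.0608 and Sox11 at -0.267. The 13 immediate-early and stress genes had a median of -0.0426 and none beyond 0.3. Of 8 general neuronal genes, with a median of 0.259, 4 passed 0.3, against 0.768% of all genes. They were Tubb3, Stmn2, the intermediate filament gene Nefm at 0.312 and Snap25, of the vesicle fusion machinery, at 0.301, while the peripherin gene Prph was at -0.383. Nefm was -0.196 at P29 male, and it was -0.242 in Noradrenergic2 and -0.202 in Unclassified cells. Stmn2 was positive in every collection but only 0.0604 at P30 female and 0.0941 at P38 male. The 13 sympathetic lineage factors had a median of -0.129 and the 5 neurotrophic factor receptors -0.120, with none beyond 0.3.

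Sex was compared in Noradrenergic3 cells summed by collection. Gal was 32.04 counts per 10000 at P29 male and 35.97 at P38 male, and in females 20.7 at P11, 31.9 at P30, 38.9 at P31, 34.7 at P33 and 47.3 at P34. Both male values lay inside the female range. The means were 34.01 ± 2.78 in males (SD, n = 2 collections) and 34.7 ± 9.76 in females (SD, n = 5). The log2 fold change of males over females was -0.05 (SE 0.22, edgeR quasi-likelihood adjusted p 1.00 over 10141 genes), and permuting the collections gave an exact permutation p of 1.00 (two-sided), the smallest possible being 0.0952. Without the P29 male or the P34 female collection the sign turned to 0.04 and 0.0857.

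Only 3 genes (0.0296%) passed in that comparison, Ddx3y higher in males (0.00986% of genes) and Xist and Tsix lower (0.0197%), which are sex-linked and are named here after their values were seen. Xist and Tsix overlap on opposite strands, and whether counting used strand is not given. At an unadjusted p under 0.05 there were 290 genes (2.86%), and DESeq2 also called 3. None of the 12 genes of galanin receptor signalling, the 11 granin and processing genes or the 5 other neuropeptides tested was among them by edgeR, and 0, 3 and 1 of these had an unadjusted p under 0.05. In the granin list Chga had the smallest p, an edgeR adjusted 1.00 at 0.63 log2 units higher in males (SE 0.19), and Npy stood at 0.07 (SE 0.19).

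Gal rose with age in Noradrenergic3 by 0.04 log2 units per day (slope 0.0401, SE 0.0101, edgeR adjusted p 0.0286, with sex in the fit). The collections gave 20.7 at P11, 32.04 at P29, 31.9 at P30, 38.9 at P31, 34.7 at P33, 47.3 at P34 and 35.97 at P38, in counts per 10000. The P11 collection was the lowest and the other 6 lay between 31.9 and 47.3, without a steady order among them. All 6 P11 cells, between 15.6 and 26.2, lay below the median of the identity. In the same fit 127 of 10141 genes were called (1.25%), 44 higher (0.434%) and 83 lower (0.818%) with age.

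The call for age depended on single collections. Without the P11 female collection the slope was 0.0392 (SE 0.0247, edgeR adjusted p 0.997) and 6 genes were called, so the call rests on a collection of 6 cells from a single chip. The adjusted p from edgeR was also above the threshold without P29 male (0.0563), P31 female (0.0828), P34 female (0.105) or P38 male (0.0580). Over the 7 collections Pearson's r with age was 0.868 (two-sided exact permutation p 0.0659) and Spearman's rho 0.786 (exact permutation p 0.0480), both 0.0659 after Benjamini-Hochberg adjustment over the 2. Without P11 alone, r over the other 6 collections was 0.405. Without both P11 and P38, the ages farthest from the median, r was 0.778 (exact permutation p 0.167). P11 cells also had the lowest glial sum, a median of 3.17 counts per 10000, and the lowest stress sum, 7.23, of the 7 collections, and the part of these in the slope was not tested.

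Of the lists read for age, 0 of 12 genes of galanin receptor signalling and 0 of 11 granin and processing genes were called by edgeR, with 1 and 3 at an unadjusted p under 0.05, which 1166 genes (11.5%) had. Of 5 other neuropeptides 1 was called, against 1.25% of all genes. It was Adm, which fell by 0.0558 log2 units per day (SE 0.0131, edgeR adjusted p 0.0146). Adm stood at 2.69 counts per 10000 at P11, 1.56 at P29, 1.23 at P30, 1.15 at P31, 0.887 at P33, 1.03 at P34 and 1.65 at P38. P11 was the highest collection and the later ones showed no steady fall. Without P11 the slope of Adm was 9.1e-05 (SE 0.0335, edgeR adjusted p 1.00), so its call rests on that collection, and without sex in the fit the edgeR adjusted p was 0.110. Npy had a slope of 0.00463 (SE 0.00957, edgeR adjusted p 0.901) and the granin gene Scg2 one of 0.0353 (SE 0.0107, edgeR adjusted p 0.0898).

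Across the 8 named identities, genes were ranked by Pearson's r between their mean levels, as log2 of counts per 10000 plus 0.1, and those of Gal. Over 5623 genes the median r was -0.00951 and 8 genes (0.142%) reached 0.9. They were Prkcb, a protein kinase C gene, at 0.947, 1500011B03Rik at 0.923, Wipi1, of autophagosome formation, at 0.921, Bbs4, of the primary cilium complex, at 0.913, the glutathione transferase gene Gstm5 at 0.907, the chromatin gene Mta1 at 0.907, the RNA demethylase gene Fto at 0.903 and the sphingomyelin synthase gene Sgms1 at 0.902. Their likeness is in shape and not in size, since the mean of Gal was 35.02 counts per 10000 in Noradrenergic3 and 0.167 in Ach2, and that of Prkcb 1.08 and 0.165. At its lowest on leaving out a collection, r was 0.363 for Bbs4, 0.411 for 1500011B03Rik, 0.503 for Mta1 and 0.679 for Prkcb. It stayed at 0.798 or higher for Fto, Gstm5, Sgms1 and Wipi1. Of the 8, Prkcb alone was highest in Noradrenergic3. Sgms1 was highest in Noradrenergic2, Bbs4 in Glutamatergic cells, and 1500011B03Rik, Wipi1, Gstm5, Mta1 and Fto in Noradrenergic1. Inside Noradrenergic3, 5 of the 8 had a positive rho with Gal, from -0.203 for Sgms1 to 0.220 for Gstm5. The median over all genes there was -0.0174, so no relation is read from this count.

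The genes most opposite to Gal over identities were Phlda3 at -0.957, the lysosomal cobalamin export gene Lmbrd1 at -0.944, the receptor phosphatase gene Ptprg at -0.938, Lgi1 at -0.938 and the chromatin remodelling gene Ino80c at -0.935. All 5 were highest in Ach1 or Ach2. The 10 other neuropeptides with a profile had a median r of 0.0424, from Npy at 0.756 to Vip, encoding vasoactive intestinal peptide, at -0.814. The 11 catecholamine genes had a median of 0.340, from the tetrahydrobiopterin-recycling gene Qdpr at 0.866 to the vesicular transporter gene Slc18a1 at -0.238. The 13 sympathetic lineage factors had a median of 0.188, from Sox4 at 0.891 to Sox11 at -0.601. The 6 neurotrophic factor receptors had a median of -0.364, from the artemin receptor gene Gfra3 at 0.830 to the neurturin receptor gene Gfra2 at -0.926. The 3 cholinergic genes lay between -0.814 and -0.915, the last being the vesicular acetylcholine transporter gene Slc18a3. These are values over 8 points, 2 of which are the cholinergic identities with Gal near 0.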

How the data were processed

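RNA of 298 single cells was measured. Per the labels' protocols, cells were caught on microfluidic chips and capture sites were inspected by eye for single healthy cells. Nothing further was done about doublets. The deposited values are whole-number counts per gene and cell. The genome build was mm10 per the submitters' processing notes, and the aligner, the counting program, its annotation, any collapsing of molecules and the way identities were assigned are not given in the sources used here. There were 0 columns without a sample.

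Levels were counts divided by the total count of the cell, times 10000. Cells were also thinned to 7000 counts, which left out 0 cells. Where a share of cells was 0, the limit given is 3 cells of the number looked at, for counting error only. For sex and age, Noradrenergic3 counts were summed over collections with at least 3 such cells, and a gene was kept if it reached 20 counts over all sums and had counts in 3 of them or more. After TMM scaling, edgeR 4.0.16 was used (robust quasi-likelihood, two-sided, Benjamini-Hochberg adjusted p under 0.05). Sex was the only term in the fit for sex, and age and sex were terms in the fit for age. The SE of a log2 fold change restates the F test. The fits and ranks were tested on simulated data. With a true log2 fold change of 2 for sex, 198 of 200 changed genes were recovered, beside 19 false calls. With a true slope of 0.1 log2 units per day for age, 193 of 200 were recovered, beside 14 false calls. Both simulated effects were larger than those estimated for Gal, so recovery of effects of its size was not tested.

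Genes for rho were counted in at least 20% of cells, and genes ranked over identities had a mean of at least 0.5 counts per 10000 in some identity. The genes named were Gal, its receptors, members of the lists counted, the 10 highest and 10 lowest by rho with 1 sign in every collection used, and the 8 highest and 5 lowest by r over identities. Of the 20 genes ranked by rho, 1 is counted but not reported by name here. Members and the 19 lists (157 genes, 152 measured) were chosen with earlier results of these data known. Alternatives were RLE scaling, DESeq2 1.42.0, other filters, thinning, other pseudocounts and leaving out collections. Those on cells with a glial sum over 20, on Noradrenergic2 and Unclassified cells and on correlation with age, and the settings for Adm by age, were added after seeing the data.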

Additional observations from a re-analysis of the deposited data

Results flagged for a closer look

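In 6 of 12 groups of 4 to 10 values, the highest Gal value stood far from the others by Dixon's 95% criterion. Chance meets that criterion in about 1 group in 20 only where values are normally distributed. Gal values here are skewed, some are 0 and some collections hold a single cell, so the number flagged cannot be set against that rate. Groups by cell and by collection also share cells. The Glutamatergic cell of P33 female had 46.2 counts per 10000, and the nearest of the other 3 had 15.1. It is the cell with counts of both catecholamine and sensory genes. The highest Noradrenergic1 cell had 76.2 counts per 10000, with 32.6 in the nearest, and by collection P31 female had 44.8, with 12.4 in the nearest. The P34 female collection had 8.32 counts per 10000 in Noradrenergic5, a single cell, with 1.33 in the nearest collection. In Ach1 the highest cell had 1.34 counts per 10000 from 5 counts, with 0.310 in the nearest, and its collection, P31 female, had 0.688 where the other 6 had 0. That Ach1 cell also held 586 Npy counts and 61 Th counts. Whether these cells' sites held more than 1 cell was not tested.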

How the results depend on the processing

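The slope of Gal with age stayed positive under 13 alternatives but missed the threshold under 6 of them. With collections of at least 10 cells it was 0.0257 (edgeR adjusted p 0.990) and 7 genes were called. Leaving out each collection gave slopes of 0.0344 to 0.0412 and 6 to 159 genes. For sex, the log2 fold change ran from -0.18 to 0.0857 when each collection was left out, turning sign without P29 male (0.0352) and P34 female (0.0857). With age as a second term it was -0.236 (SE 0.169), outside that range, and Gal was again not called. Genes called for sex numbered 2 to 6 on leaving out a collection and 8 with no filter on low counts. The Gal level moved by more than its spread in Glutamatergic cells when cells with a glial sum over 20 were left out (46.2 counts per 10000, a single cell), in Noradrenergic1 over collections of at least 3 cells (43.99, a single collection) and in Ach2 without those glial cells (0.409). Thinned cells gave 43 genes with rho of at least 0.3 and 47 of -0.3 or lower, and leaving out a collection gave 83 to 257 and 113 to 330, with the most without P31 female, the largest collection. In Noradrenergic2 the sign turned for Gpi1 (-0.0243), Chchd10 (0.269), Srrm4 (0.163), Cnnm3 (0.165), Brinp1 (0.0315) and Rpl13 (0.0554), and in Unclassified cells for Syt1 (0.103), Rtn1 (0.00342) and Rarres1 (0.182). Genes with r of at least 0.9 over identities numbered 2 with a pseudocount of 1, 23 with no minimum level, 42 without Glutamatergic and 7 to 17 on leaving out a collection. The cause of these shifts was not tested. No paired analysis was possible because a collection has a single sex and age, so the groups tested share none (identities were compared within collections).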
